A study of Mus musculus with 3 samples.

Results

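The secreted cytokines of T cells were examined as a set of 10 genes, namely Il2, Il21, Il4, Il13, Il3, Csf2, Ifng, Il10, Il22 and Il17a, picked by symbol from the 44788 gene symbols of the deposited count table. All 10 had a row and at least 1 read in every library. The table holds RNA-seq reads per gene from 3 libraries of T lymphocytes that came from spleens of female BALB/c mice aged 6 to 8 weeks. The cells were captured with beads against CD90.2 (Thy1), kept in RPMI medium with 2% fetal bovine serum, and treated for 15 h with LZ-8, an immunomodulatory protein of the fungus Ganoderma lucidum. The dose of LZ-8 is not given in the sources used here. All 3 libraries belong to the same group (LZ-8 for 15 h), and without untreated cells, which were not analysed here, the levels cannot be read as an effect of LZ-8. Nothing in the labels says that each replicate had its own mouse or culture, so the spread and the p-values cover differences between these libraries, which may be technical.

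Cytokines are the secreted proteins through which T cells act on each other and on other cells. A T cell that meets its antigen switches on cytokine genes through NFAT, AP-1 and NF-kB factors, and lineage factors decide which of the genes are open in a given helper subset. Many cytokine messages are short-lived, because AU-rich elements behind the coding region are recognised by RNA decay proteins. Th1 cells are known for interferon gamma, Th2 cells for IL-4 and IL-13, Th17 cells for IL-17A and IL-22, and follicular helper cells for IL-21.

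A feature that all 10 genes shared, and that the choice of genes did not use, was the AU-rich pentamer ATTTA in the transcript behind the stop codon. It was searched on the sense strand of 1 protein-coding GENCODE vM21 transcript per gene, the one with the longest such part, with overlapping matches counted. The 10 genes held from 1 (Il3) to 9 (Csf2, Il21) pentamers there, with a median of 10.4 per kb, against a median of 1.35 per kb over 19844 genes with at least 100 bases of such sequence. At least 1 ATTTA was found in 68.2% of those genes, so its mere presence sets nothing apart. Csf2 had 28.4 per kb, a density that 0.0403% of all genes reached, Il4 had 19.2 per kb (reached by 0.0957%) and Il2 had 12.0 per kb (reached by 0.448%). The lowest densities were those of Il21 (3.49 per kb, reached by 17.0%) and Il13 (4.05 per kb, reached by 12.5%). The density of Il3 (9.90 per kb) rests on a single pentamer in 101 bases and that of Il4 on 2 pentamers in 104 bases. The longer motif TTATTTATT, which contains ATTTA, occurred in 5 of the 10 genes (Csf2, Il2, Il21, Il13 and Il22) and in 8.02% of all genes. The 30-base stretches with the most pentamers are shown for genes that range from 5 pentamers in a run to 1 (GRCm38, 5′ to 3′ in the direction of the gene, ATTTA in capitals).
Csf2 (chr11:54247325-54247354, minus strand): taaatATTTATTTATTTATTTATTTAtttt
Il2 (chr3:37121039-37121068, minus strand): tATTTATTTAaatATTTAactttaATTTAt
Ifng (chr10:118445332-118445361, plus strand): cctATTTAttaatATTTAaaactATTTAta
Il17a (chr1:20734203-20734232, plus strand): ATTTAtatgagctATTTAtgaatctATTTA
Il3 (chr11:54265303-54265332, minus strand): atgccatcaaatgtcttatcaATTTAtcta
In Csf2 the 5 pentamers overlap end to start in an unbroken run, in Il2 they form 2 overlapping and 2 separate copies, in Ifng and Il17a 3 stand apart, and in Il3 there is 1. A match of letters is a description of the sequence and no measurement of decay.

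**Figure D1:**
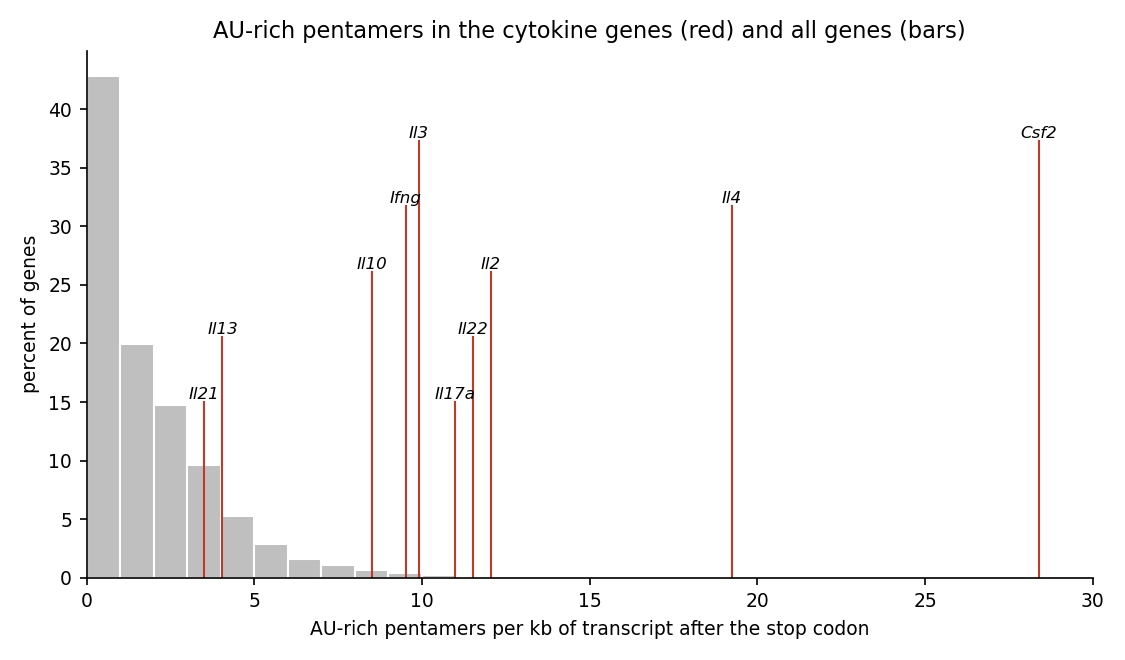
Histogram of AU-rich pentamers per kb of transcript behind the stop codon, as the percent of 19844 genes in each bin of 1 per kb (grey bars), with the 10 cytokine genes as red lines whose height only separates the names. The cytokine genes lie between 3.49 (Il21) and 28.4 (Csf2) per kb, all to the right of the overall median of 1.35 per kb.

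The promoter windows (250 bases before and 50 after the annotated start, RefSeq sequences on GRCm38.p6) were matched for 9 of the 10 genes, with 2 starts for Il4, which gave 10 windows. The NFAT core GGAAA, read on both strands, was in 9 of the 10 windows and in 61.3% of the 32851 windows of all genes. The AP-1 motif TGANTCA, which reads the same on both strands, was in 1 window (Il17a) and in 7.81% of all. The TATA motif TATAAA was in 5 windows (Il2, Ifng, Il13, Il17a and Il22) and in 13.6% of all, counted on both strands. The upstream Il4 window had 5 GGAAA copies, a number that 0.728% of all windows reached, and the Il2 window had 2. These 2 windows are printed because Il2 had the highest level of the 10 genes and Il4 the densest GGAAA, with the letters of GGAAA (or TTTCC, the same motif on the other strand) and TATAAA in capitals.
Il2 (chr3:37125905-37126204, minus strand): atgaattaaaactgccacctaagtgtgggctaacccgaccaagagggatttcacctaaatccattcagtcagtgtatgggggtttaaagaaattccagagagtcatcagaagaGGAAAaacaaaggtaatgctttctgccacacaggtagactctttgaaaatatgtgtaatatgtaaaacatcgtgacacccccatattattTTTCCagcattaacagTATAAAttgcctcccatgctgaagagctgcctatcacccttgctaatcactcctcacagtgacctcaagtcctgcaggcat
Il4 (chr11:53618616-53618915, minus strand): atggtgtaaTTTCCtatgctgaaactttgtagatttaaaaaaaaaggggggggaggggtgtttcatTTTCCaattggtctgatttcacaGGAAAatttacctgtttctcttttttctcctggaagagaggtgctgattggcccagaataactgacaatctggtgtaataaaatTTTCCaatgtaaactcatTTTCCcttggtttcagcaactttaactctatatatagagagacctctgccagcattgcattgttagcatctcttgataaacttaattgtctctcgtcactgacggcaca
The Il2 window carries its TATAAA downstream of both GGAAA copies, and the Il4 window has no TATAAA. No binding was measured.

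The 10 genes together took a small part of each library. They held 1245, 749 and 918 reads in replicates 1, 2 and 3, out of 19041670, 12669690 and 14715992 reads in all. As CPM (counts per 1000000 counts) they summed to 65.4, 59.1 and 62.4, a mean of 62.3 ± 3.13 CPM (SD, n = 3). Il2 and Ifng supplied 62.4%, 58.6% and 61.8% of these reads. The median member stood at 3.48 CPM, against 27.0 CPM for the 13500 genes that reached 1 CPM in at least 2 libraries, and 0 of the 10 exceeded that median. On the scale per kb of annotated exon the 10 genes had a median of 2.62 CPM per kb. The median was 8.35 CPM per kb over the 12299 of the 13500 genes with an exon length. On that scale 2 cytokine genes, Il2 and Ifng, exceeded 8.35 CPM per kb. Both comparison sets leave out genes under the 1 CPM filter, which Il3 did not pass. Among the 22914 symbols with a read, the members stood above 32.0% (Il3) to 68.1% (Il2), with Csf2 above 49.8% and Il10 above 51.8%. In bulk RNA a low level from many cells and a high level from few cells cannot be told apart, so none of these levels says how many cells transcribed the gene.

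Il2 encodes interleukin 2, the T cell growth factor, and lies on chromosome 3 (chr3:37120523-37125959, minus strand, GRCm38). It had 472, 257 and 327 reads in replicates 1, 2 and 3, which are 24.8, 20.3 and 22.2 CPM. Replicate 1 was the highest and replicate 2 the lowest, and the counting interval of replicate 1 (22.6 to 27.1 CPM) overlapped that of replicate 2 (17.9 to 22.9 CPM) only narrowly. These intervals are exact Poisson 95% intervals and cover counting error only, as do all such intervals and limits here. By mean CPM Il2 was 7310th of the 44788 symbols, above 68.1% of the symbols with a read.

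Il21 encodes interleukin 21, a cytokine of follicular helper cells that drives B cell help, and is the next protein-coding gene from Il2 on the same strand (chr3:37222759-37232636), 96.8 kb away. It had 132, 92 and 98 reads, or 6.93, 7.26 and 6.66 CPM, values that lay within 1 CPM of each other. Il2 reads outnumbered Il21 reads 3.21-fold, with a log2 ratio of 1.68 ± 0.18 (SD, n = 3) and the same direction in 3 of 3 libraries. Il2 made up 78.1%, 73.6% and 76.9% of the reads of the pair, with exact 95% intervals from 68.7 to 81.4% over the libraries. The annotated exons of Il2 add up to 1144 bases and those of Il21 to 5259, and on the scale per kb of exon the ratio was 14.7-fold, or 8.61-fold per kb of the longest single transcript. Protein-coding genes that flank the members, a choice added after values were seen, are given for context. The gene 4932438A13Rik on the far side of Il2 was at 271 ± 16.7 CPM and Cetn4 beyond Il21 at 0.873 ± 0.332 CPM. Adad1, which overlaps the end of Il2 on the opposite strand, had 0 reads in each library.

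Il4 and Il13 encode the type 2 cytokines interleukin 4 and interleukin 13 and are neighbours on chromosome 11 (chr11:53602982-53618669 and chr11:53631324-53634702, both minus strand), 12.7 kb apart. Il4 had 39, 39 and 37 reads, or 2.05, 3.08 and 2.51 CPM, with counting intervals of 1.46 to 2.80, 2.19 to 4.21 and 1.77 to 3.47 CPM. The equal read numbers came from libraries of unequal depth, so the smallest library, replicate 2, had the highest CPM. Il13 had 35, 20 and 17 reads, or 1.84, 1.58 and 1.16 CPM, with intervals of 1.28 to 2.56, 0.964 to 2.44 and 0.673 to 1.85 CPM. Here replicate 1 was highest and replicate 3 lowest, and all 3 intervals overlapped. Il13 made up 47.3% of the reads of the pair in replicate 1, with an exact 95% interval of 35.6 to 59.3%. In replicates 2 and 3 its share was 33.9% (22.1 to 47.4%) and 31.5% (19.5 to 45.6%). The log2 ratio of Il13 to Il4 was -0.73 ± 0.51 (SD, n = 3), below 0 in 3 of 3 libraries, and in replicate 1 the interval of the share includes an even split. Per kb of exon it was -0.71, and per kb of the longest single transcript, which is shorter for Il4 (605 bases, against 1227 over all exons), -1.73. Of the flanking genes Kif3a, whose end lies 1.01 kb from Il4, was at 8.83 ± 1.54 CPM, and the DNA repair gene Rad50, on the Il13 side, was at 76.2 ± 2.65 CPM. Per kb of exon Il4 (2.08 ± 0.420) and Il13 (1.26 ± 0.286) were below Rad50 (14.2 CPM per kb), and Il4 differed from Kif3a (2.46 CPM per kb) by less than its own SD. The closeness to Kif3a rests on the length used, as Il4 was at 4.21 CPM per kb of its longest single transcript.

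Il3 and Csf2 encode interleukin 3 and GM-CSF, growth factors of myeloid cells, and form a second pair on chromosome 11 (chr11:54265303-54267277 and chr11:54247271-54249667, both minus strand), 15.6 kb apart and 647 kb from Il4. Il3 had 7, 3 and 7 reads, the fewest of the 10 genes, and was the only member that did not reach 1 CPM in any library. Its levels were 0.368 CPM (interval 0.148 to 0.757), 0.237 CPM (0.0488 to 0.692) and 0.476 CPM (0.191 to 0.980) in replicates 1, 2 and 3. For comparison, the interval of a gene with no read reaches up to 0.194, 0.291 and 0.251 CPM in replicates 1, 2 and 3, so Il3 in replicate 2 stood below that limit. Csf2 had 66, 35 and 48 reads, or 3.47, 2.76 and 3.26 CPM. Il3 was 9.59%, 7.89% and 12.7% of the reads of the pair, with exact 95% intervals from 1.66 to 24.5% over the libraries, and the log2 ratio of Il3 to Csf2 was -3.06 ± 0.33 (SD, n = 3; -2.71 per kb of exon). The flanking genes P4ha2 and Acsl6 were at 0.194 ± 0.153 and 0.299 ± 0.142 CPM. Il5, a type 2 cytokine gene that was singled out after its values were seen, had 3, 3 and 4 reads (a mean of 0.222 CPM).

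Ifng encodes interferon gamma, the main cytokine of Th1 and CD8 T cells that activates macrophages, and lies on chromosome 10 (chr10:118441046-118445892, plus strand). It had 305, 182 and 240 reads, or 16.0, 14.4 and 16.3 CPM, with replicate 2 lowest and all 3 counting intervals overlapping (14.3 to 17.9, 12.4 to 16.6 and 14.3 to 18.5 CPM). Il22 encodes interleukin 22, a cytokine that acts on epithelial cells, and lies 231 kb away on the same strand (chr10:118204942-118210047), with 9 annotated protein-coding genes between them, Iltifb and 8 predicted genes. Il22 had 33, 27 and 23 reads, or 1.73, 2.13 and 1.56 CPM, with intervals of 1.19 to 2.43, 1.40 to 3.10 and 0.991 to 2.35 CPM. Ifng reads outnumbered Il22 reads 8.52-fold (log2 ratio 3.09 ± 0.32, SD, n = 3), and 7.31-fold per kb of exon. The flanking genes Mdm1, on the Il22 side, and Dyrk2, on the Ifng side, were at 8.53 ± 0.602 and 64.0 ± 1.07 CPM, and of the 6 predicted genes in between that matched a row of the table the highest was Gm9049 at 5.59 ± 0.818 CPM. The level of Il22 is uncertain, because 53.6% of its 31-base words also occur in transcripts of Iltifb, a near copy between Ifng and Il22 that had 12, 14 and 12 reads. The reads of both summed to 2.36, 3.24 and 2.38 CPM, a mean of 2.66 CPM, and Il22 alone averaged 1.81 ± 0.292 CPM (SD, n = 3). Smaller shares of 31-base words recurred in transcripts of other genes for Ifng (22.6%, all in Gm49751, a transcript annotated inside it), Il2 (15.0%), Csf2 (9.22%) and Il21 (9.15%), so these levels too carry some uncertainty, while Il3, Il4, Il10, Il13 and Il17a shared none. How the counting treated reads that match several genes is not given in the sources used here.

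Il10 encodes interleukin 10, an anti-inflammatory cytokine of regulatory and other T cells, and lies on chromosome 1 (chr1:131019845-131024974, plus strand). It had 83, 50 and 61 reads, or 4.36, 3.95 and 4.15 CPM, the values of which spread less than counting error alone would give. Its share of the reads of the 10 genes was 6.66 ± 0.0158% (SD, n = 3). The neighbouring kinase gene Mapkapk2 was at 211 ± 16.0 CPM, and Il19, a cytokine gene of the IL-10 family on the other side, had 0, 2 and 0 reads. Il17a encodes interleukin 17A, which recruits neutrophils through epithelial and stromal cells, and lies elsewhere on chromosome 1 (chr1:20730905-20734496, plus strand). It had 73, 44 and 60 reads, or 3.83, 3.47 and 4.08 CPM, and again all 3 intervals overlapped. Its neighbour and family member Il17f, 42.6 kb away, had 67, 29 and 43 reads (2.91 ± 0.615 CPM). Per kb of exon Il17a stood at 3.24 ± 0.260 CPM per kb and Il17f at 1.44 ± 0.304 CPM per kb. The gap depends on the length used, as per kb of the longest single transcript Il17f was at 2.47 CPM per kb and Il17a unchanged. Pkhd1, on the other side of Il17a, had 1, 0 and 0 reads.

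**Figure D2:**
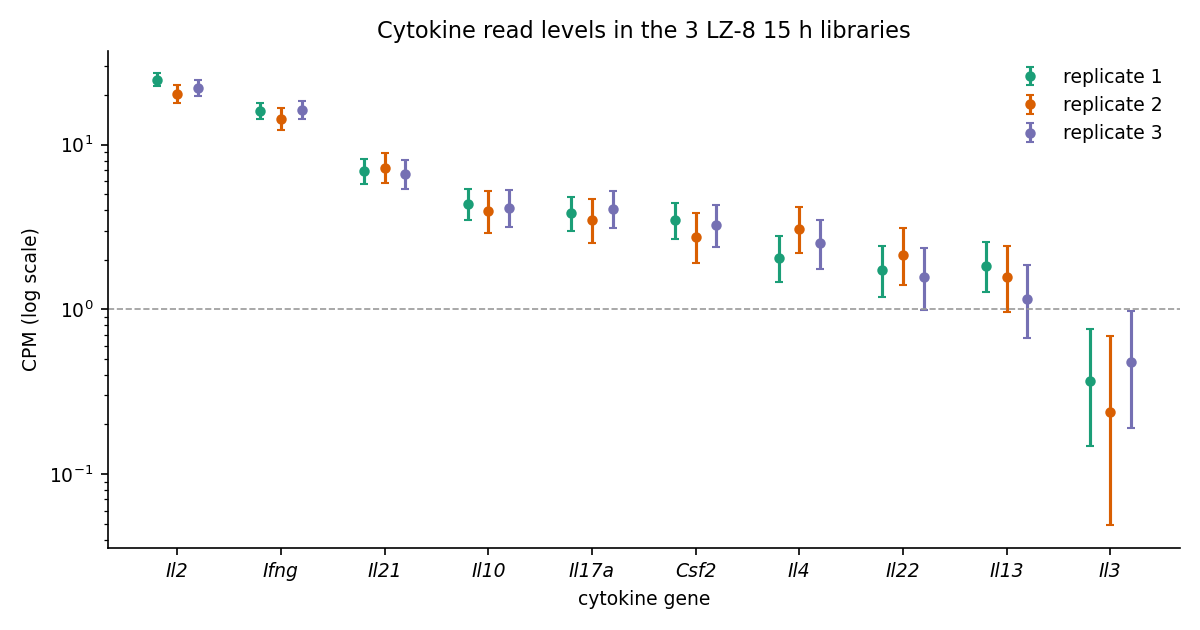
CPM on a log axis for the 10 cytokine genes in each of the 3 libraries, with exact Poisson 95% intervals as bars and a dashed line at 1 CPM. Il2 (20.3 to 24.8 CPM) and Ifng (14.4 to 16.3 CPM) stand above the rest, 7 genes lie between 1.16 and 7.26 CPM, and Il3 lies below 1 CPM with the widest intervals.

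Levels of different genes were ordered per kb of exon, the sum of all annotated exons of the gene. Il2 came first at 19.6 ± 1.97 CPM per kb and Ifng next at 12.0 ± 0.810 CPM per kb (SD, n = 3). Their values did not overlap over the libraries (17.7 to 21.7 for Il2 and 11.1 to 12.6 for Ifng), and Ifng in turn was clear of the following gene. Csf2 (3.95 ± 0.452), Il17a (3.24 ± 0.260) and Il10 (3.17 ± 0.157 CPM per kb) followed, with values of Il17a that overlapped those of both others, while those of Csf2 (3.45 to 4.33) and Il10 (3.01 to 3.33) did not overlap. Il17a exceeded Il10 in 1 of 3 libraries once 0.5 was added to each count, with a mean log2 ratio of 0.03 ± 0.09. Below them Il4 (2.08 ± 0.420) and Il22 (1.63 ± 0.263 CPM per kb) overlapped, as did Il21 (1.32 ± 0.0573) and Il13 (1.26 ± 0.286 CPM per kb). Il3 was last at 0.572 ± 0.190 CPM per kb, with its highest library (0.756) below the lowest of Il13 (0.959). The order in the middle depends on the length used. Per kb of the longest single transcript Il4 moved to 4.21 CPM per kb, directly behind Ifng, and Il21 to 2.26 CPM per kb, and 4 of the 10 genes kept their place (Il2, Ifng, Il13 and Il3). Those same 4 genes also kept their place in the order of CPM not scaled for length, in which Il21 came directly behind Ifng. An exact two-sided sign-flip permutation test over 3 libraries cannot give a p below 0.25. All 4 ratios within the pairs of a locus (Il2 to Il21, Il3 to Csf2, Il13 to Il4 and Ifng to Il22) gave that value, raw and adjusted over the 4, so none could pass a threshold of 0.05.

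**Figure D3:**
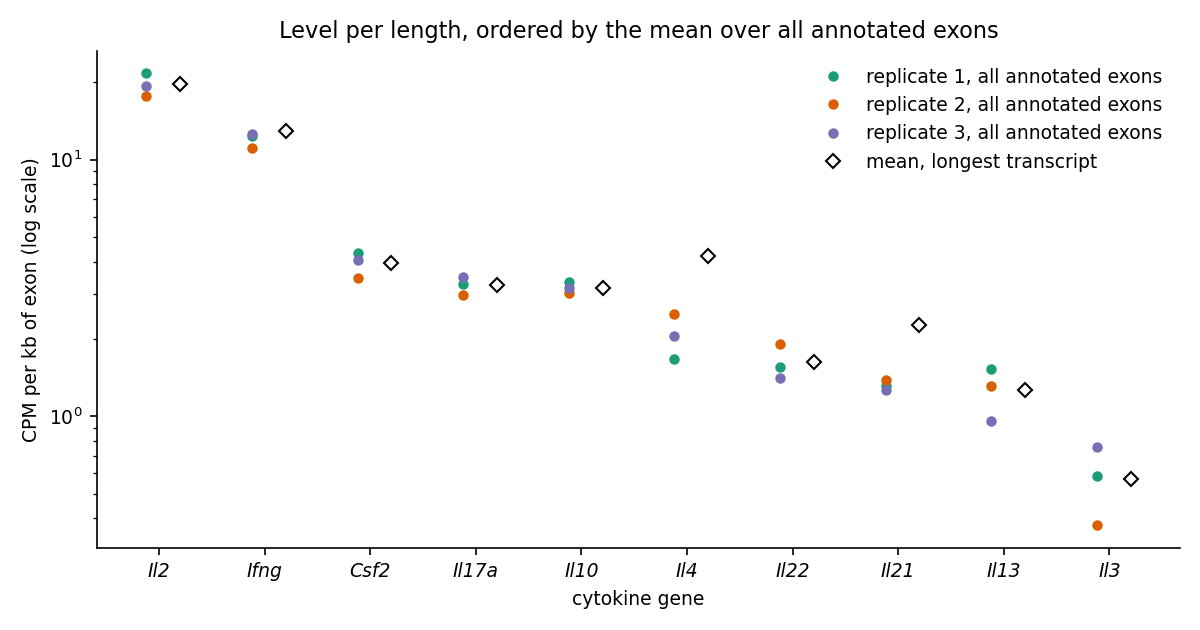
Level per kb of exon on a log axis, by library (filled points, all annotated exons) and as the mean per kb of the longest single transcript (open diamonds). Il2 and Ifng are highest and Il3 lowest on both scales, while Il4 (2.08 against 4.21 CPM per kb) and Il21 (1.32 against 2.26) shift with the length used.

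Whether the cytokine levels differed between the libraries by more than counting noise was tested in edgeR, by a likelihood-ratio test that allows no dispersion beyond Poisson counting and was fitted across all genes. This test has no direction. Of the 9 cytokine genes tested, 0 passed at a Benjamini-Hochberg adjusted p under 0.05 in edgeR, against 13.7% of the 13500 genes tested (1847 genes). At an unadjusted p under 0.05 edgeR had 1 of the 9, Il2 (edgeR adjusted p = 0.138), against 27.8% of all genes. Il3 did not pass the filter of 1 CPM in at least 2 libraries. With every gene of at least 1 read tested it had an edgeR adjusted p of 0.726, in a run that called 0 of the 10 cytokine genes and 7.28% of 22914 genes. The test calls abundant genes more readily: of the 7022 tested genes with a mean from 1 to 30 CPM, the band that holds the 9 cytokine genes, 6.05% were called. The median range over the libraries was 0.29 log2 units for the 9 cytokine genes and 0.28 for the genes of that band. The widest ranges were those of Il13 (0.64 log2 units, adjusted p = 0.509) and Il4 (0.59, adjusted p = 0.414), and the narrowest was that of Il21 (0.12, adjusted p = 0.919). Set against counting error alone, the coefficient of variation over the libraries was larger in 4 of the 10 genes. It was 10.1% in Il2 (5.41% from counting), 20.3% in Il4 (16.4%), 22.6% in Il13 (20.7%) and 6.74% in Ifng (6.51%). In Il10 it was smaller, 4.97% against 12.6%. The share of all genes with a larger coefficient was not computed, so 4 of 10 cannot be read as spread beyond counting. At these depths a difference between libraries of the size seen in Il4 or Il13 was not detectable beyond counting noise.

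**Figure D4:**
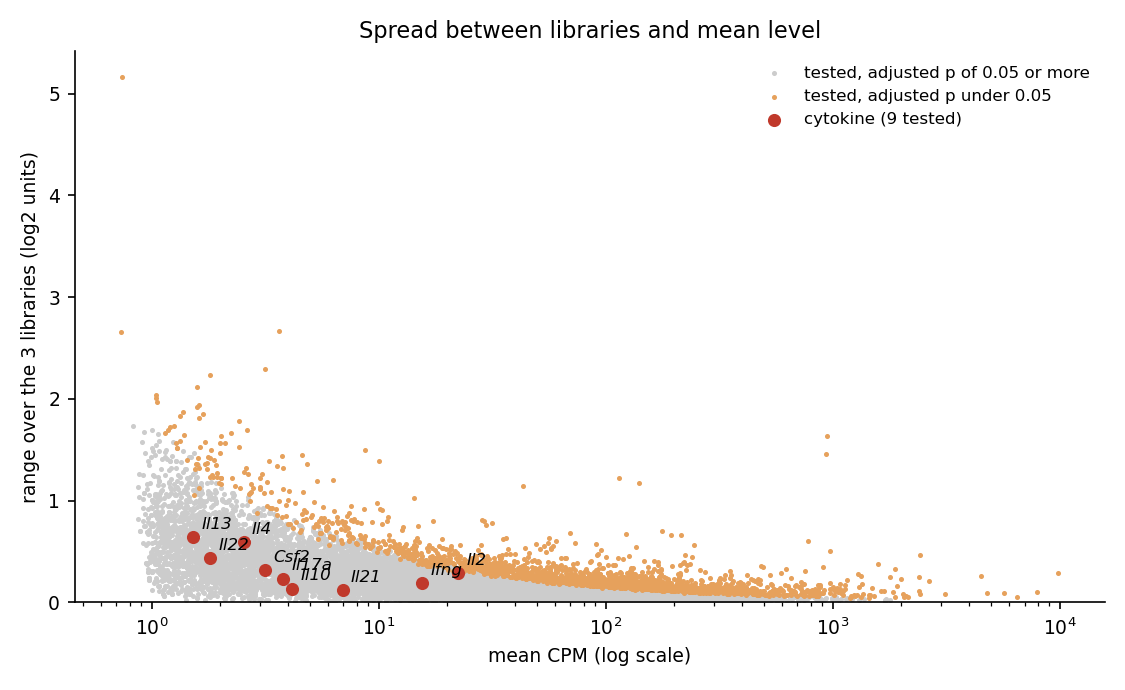
Range over the 3 libraries in log2 units against the mean CPM (log axis) for the 13500 tested genes, grey or orange by adjusted p, with the 9 tested cytokine genes in red. The cytokine genes fall among the grey points, from 0.12 (Il21) to 0.64 (Il13) log2 units, with the wider ranges at lower levels.

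The receptors of these cytokines were measured in the same libraries. Of the 19 receptor genes, 13 were above 1 CPM and 6 above 100 CPM, with a median of 26.9 CPM (7.70 CPM per kb), and 2 of the 13 tested, Il2ra and Il2rb, differed between the libraries (15.4%, against 13.7% of all genes). Il2, at 19.6 ± 1.97 CPM per kb of exon, was below all 3 chains of its receptor in every library. Among these, Il2ra was at 143 ± 3.36, Il2rb at 120 ± 5.94 and the common gamma chain Il2rg at 193 ± 3.32 CPM per kb (SD, n = 3). Il2ra stood at 794, 824 and 829 CPM in replicates 1, 2 and 3, lowest in the library in which Il2 was highest. The same held for Il2rg (454, 457 and 469 CPM). Il2rb, at 512, 491 and 542 CPM, was instead lowest in replicate 2, the library in which Il2 was lowest. With 3 libraries no relation between the genes can be tested. The gamma chain also pairs with Il21r (40.0 CPM per kb) and with Il4ra (64.7 CPM per kb), the ligand-binding chains for IL-21 and IL-4, both above 100 CPM in total level (133 ± 3.37 and 388 ± 8.97 CPM).

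For other members a receptor chain was at or near 0. Il13ra1, which pairs with Il4ra to bind IL-13, had 0, 2 and 2 reads, and Il13ra2, the decoy receptor for IL-13, had no read. Il22ra1, the specific chain of the IL-22 receptor, had no read either, with interval upper limits of 0.194, 0.291 and 0.251 CPM in replicates 1, 2 and 3. In contrast Il10rb, the chain shared by the receptors of IL-22 and IL-10, was at 37.4 ± 0.787 CPM. Il22ra2, a secreted protein that binds IL-22, had 0, 1 and 0 reads. Of the 2 chains of the IL-17A receptor Il17ra was at 177 ± 2.74 CPM and Il17rc had 0, 0 and 1 reads. The chains for interferon gamma, Ifngr1 (59.2 ± 0.993 CPM) and Ifngr2 (35.0 ± 0.629 CPM), and the IL-10 chain Il10ra (26.9 ± 1.24 CPM) were all present. Per kb of exon Ifng (12.0 CPM per kb) was below Ifngr1 (20.8 CPM per kb) and above Ifngr2 (9.28 CPM per kb). The myeloid growth factor receptors were low, with Il3ra at 5.45 ± 0.407, Csf2ra at 5.04 ± 1.07, Csf2rb at 1.44 ± 0.185 and Csf2rb2 at 0.343 ± 0.122 CPM. Of the 31-base words of Csf2rb and Csf2rb2, 19.7% and 30.1% occur in transcripts of other genes, mainly of each other, so these 2 levels are uncertain.

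**Figure D5:**
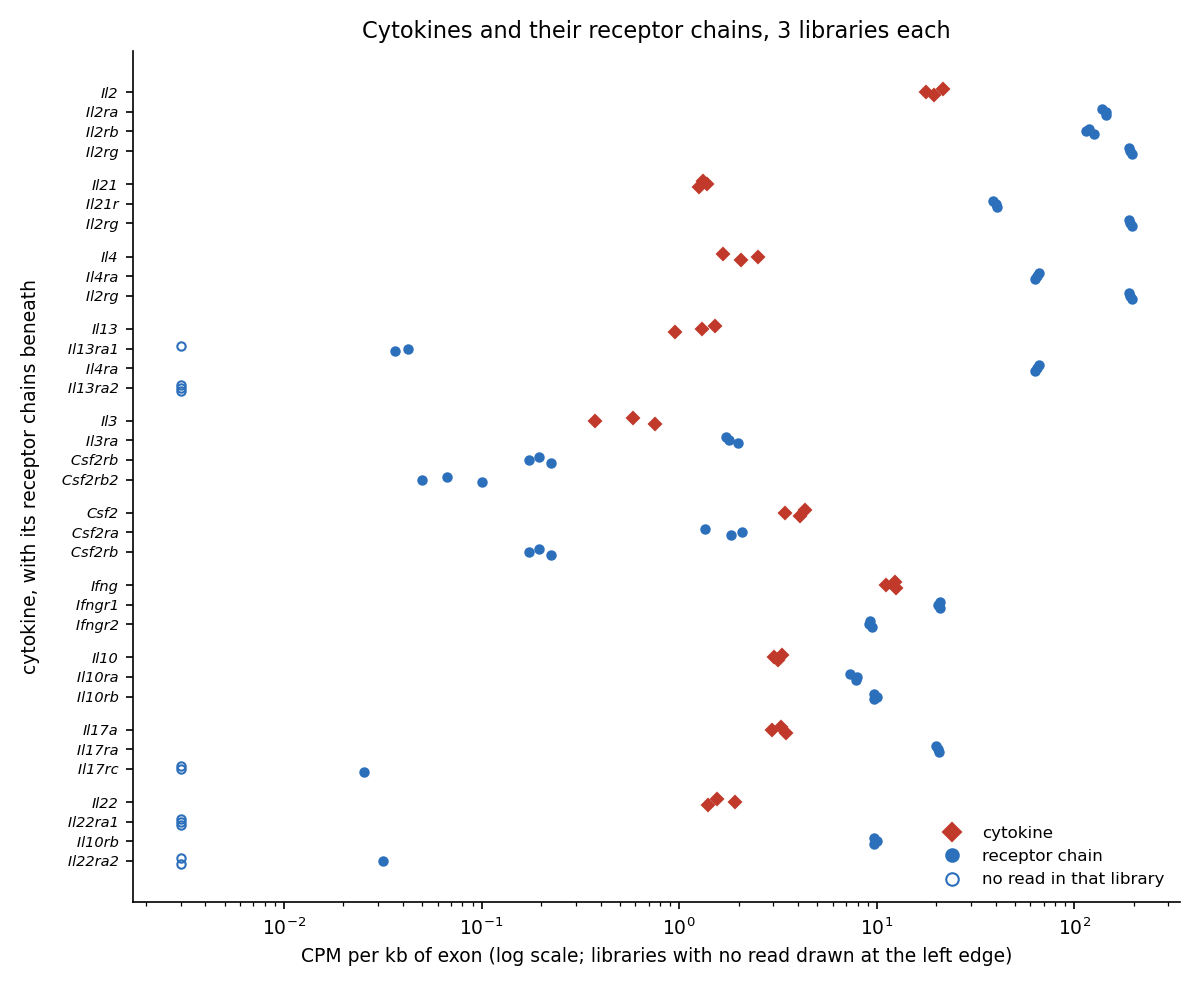
CPM per kb of exon on a log axis in the 3 libraries for each cytokine (red diamonds) and its receptor chains beneath (blue circles, open at the left edge where a library had no read). Il2 (19.6 CPM per kb on average) lies to the left of its 3 chains (120 to 193), whereas Il22ra1 and Il13ra2 have no read.

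The 10 cytokine genes had a median of 2.62 CPM per kb of exon, against 3.44 CPM per kb over 22 other secreted cytokine and chemokine genes of T cells. Of those 22 genes 15 were above 1 CPM and 3 above 100 CPM. The most abundant were Il16 (241 ± 6.39 CPM), Tgfb1 (168 ± 4.36 CPM), Mif (141 ± 67.9 CPM), Lif (55.3 ± 0.442 CPM) and Lta (46.8 ± 2.03 CPM). Of the 15 tested Mif alone (6.67%, against 13.7% of all genes) differed between the libraries, with replicate 3 far above the others (105, 97.6 and 219 CPM in replicates 1, 2 and 3). Il9, Il24 and Il31 had no read in any library. Il2 (19.6 CPM per kb) was below Lta (33.8 CPM per kb), and below Tnf (24.6) and the chemokine gene Ccl4 (65.5 CPM per kb), which were singled out after their values were seen.

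Against the median of 2.62 CPM per kb over the 10 cytokine genes, the 26 listed transcription factors that regulate them had a median of 11.4 CPM per kb. All 26 were above 1 CPM, and 7 of 26 (26.9%) differed between the libraries, Irf4 among them, against 13.7% of all genes tested and 33.9% of the 2570 with a mean of at least 100 CPM. The most abundant were Irf4 (2410 ± 101 CPM), Ikzf1 (530 ± 6.83 CPM), Stat6 (427 ± 6.33 CPM), Nfatc1 (310 ± 3.81 CPM) and Nfatc3 (256 ± 8.23 CPM). Tbx21 and Gata3 were singled out after their values were seen. Ifng, at 12.0 ± 0.810 CPM per kb, stood below Tbx21 (34.1 ± 1.22), the Th1 factor that drives it. Il4 (2.08 ± 0.420) and Il13 (1.26 ± 0.286 CPM per kb) were below Gata3 (8.22 ± 0.158), the Th2 factor that drives both (SD, n = 3).

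Genes for proteins that act on AU-rich and other decay elements were all above 1 CPM, and 7 of the 10 were above 100 CPM. The most abundant were Khsrp (365 ± 8.27 CPM) and Zfp36l1 (267 ± 3.37 CPM), whose products bind AU-rich elements, and Zc3h12d (270 ± 12.3 CPM), of the Regnase family of RNA nucleases. Zfp36l2 (193 ± 1.69 CPM) and Hnrnpd (184 ± 5.34 CPM), both of AU-rich element binding proteins, came next. Between the libraries 2 of the 10 (20%) differed, Zc3h12d and Elavl1, the second singled out after its values were seen. This compares with 13.7% of all genes tested and 33.9% of the 2570 with a mean of at least 100 CPM.

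Cells other than conventional T cells can also make these cytokines, so their markers were read beside the cytokine levels. The 10 T cell markers, which include Cd5, Cd3e and Trac, were all above 100 CPM and summed to 3308 to 3465 CPM over the libraries. Of these 10, 6 (60%) differed between the libraries in edgeR, against 33.9% of the 2570 genes with a mean of at least 100 CPM. Their median range was small, 0.093 log2 units. Beside Il17a and Il22, the 10 markers of gamma-delta and innate-like T cells summed to 16.3 to 17.6 CPM, with 6 above 1 CPM. Among them were Zbtb16 (4.32 ± 0.109 CPM) and Trdc, the constant segment of the T cell receptor delta chain (2.89 ± 0.616 CPM). Il1r1, Blk and Il23r were at 2.93, 2.81 and 1.44 CPM. The rest, named with their values known, were lower. Tcrg-C2 was at 1.39 CPM, and Sox13, Tcrg-C4, Cd163l1 and Tcrg-C1 were at 0.458, 0.394, 0.346 and 0.178 CPM. Trdc had 67, 29 and 42 reads, and Il17a had 73, 44 and 60. Beside Il4 and Il13, the 9 markers of mast cells, basophils and type 2 innate lymphoid cells summed to 12.9 to 15.2 CPM, nearly all of it Kit (8.24 ± 1.23 CPM), Il1rl1 (3.86 ± 0.478 CPM) and Hpgds (1.39 ± 0.286 CPM), while Mcpt8, Fcer1a and Prss34 had no read. Beside Ifng, the 8 natural killer cell markers summed to 27.6 to 31.1 CPM, mostly Eomes and Klrk1, which CD8 T cells share, and Klrb1c (7, 13 and 5 reads), Gzma (13, 3 and 5) and Ncr1 (0, 0 and 9), all named with their values known, had few. Klre1, Klra8 and Klra4 had no read, but BALB/c mice are known to lack Klra8 and Klra4, so their zeros carry no information. Beside Il10, the 8 B cell markers summed to 18.4 to 21.2 CPM (7 above 1 CPM) and the 10 markers of monocytes, macrophages and dendritic cells to 4.26 to 5.41 CPM (1 above 1 CPM, Cd68), with Csf1r, Fcgr1 and C1qa at 0. The part of such cells in the cytokine levels was not tested.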

How the data were processed

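The deposited file holds raw counts of reads for each gene symbol, 1 column per library, and 0 columns of other samples. Per the submitters' processing notes the build is mm10. Aligner, counter, annotation and strand use were not given in the sources used here, so reads of overlapping, antisense or near-identical genes may be misassigned. CPM used column totals (12669690 to 19041670). Exon lengths, positions and 31-base words came from GENCODE vM21 (GRCm38, the assembly of mm10). The single group allows no contrast, so edgeR's quasi-likelihood test could not be used. Libraries were compared in edgeR 4.0.16 (TMM, glmFit, dispersion 0, glmLRT), with Benjamini-Hochberg adjustment over the 13500 genes that reached 1 CPM in 2 or more libraries. On simulated Poisson counts for this comparison (13500 genes) it found 76 of 100 genes at 1.5-fold and 96 of 100 at 2-fold, with 14 false calls. The changed genes were drawn from all levels of at least 1 CPM and changed in replicate 1 only. These shares therefore do not give the power at the low levels of most cytokine genes. Pair ratios had 0.5 added to each count. The 10 genes and 12 lists (143 entries, 1 found by an older symbol) were chosen with earlier results of these data known. Named were all members, receptors and the near copy, and of other lists up to 5 genes with the highest mean CPM and those without a read, with exceptions marked. Alternatives used DESeq2 1.42.0 size factors, unscaled totals, other filters, lengths and pseudocounts, and each library left out. Other software was R 4.3.3, Python 3.11.15 with scipy 1.17.1 and pandas 2.3.3, and matplotlib 3.10.9.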

Additional observations from a re-analysis of the deposited data

How the results depend on the processing

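No paired analysis was possible because there is only 1 group of libraries. Pooling the reads of Il22 and Iltifb was chosen after seeing the data; the pooled level was 2.66 CPM, against 1.81 CPM for Il22 alone. All 20 member levels under TMM or DESeq2 size factors moved by less than the SD over the libraries (at most 0.0573%). With a library left out the 30 levels moved by at most 17.1%. Leaving out 1 of 3 libraries always moves a mean by less than the SD, so the SD is no yardstick for those 30. The order per kb kept 4 of 10 places with the longest transcript and 4 without length scaling, and 6 to 10 with a library left out, lowest without replicate 3, where Il10 passed Il17a and Il13 passed Il21. The 4 ratios within pairs of a locus kept their sign under every setting run. Each had the same sign in all 3 libraries, so only scaling for length could have reversed it. The count of cytokine genes that differed between the libraries was 0 in edgeR under every setting, while the count over all genes was 1668 to 1861 with other scalings and filters and 742 to 1193 with a library left out (742 without replicate 3, 1120 without replicate 1, 1193 without replicate 2). Depth limits Il3 most, at 3 to 7 reads a library.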
